A study of Mus musculus with 6 samples.

Results

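The 10 genes described here are the platelet-derived growth factor (PDGF) ligands Pdgfa, Pdgfb, Pdgfc and Pdgfd, the PDGF receptors Pdgfra and Pdgfrb, and the pericyte markers Rgs5, Cspg4, Mcam and Kcnj8. They were chosen by name, each represented by the probe set (the group of array probes for 1 transcript) with the highest mean over all arrays that the platform annotation gives to that gene alone. All 10 passed the filter on dim values and stand among 15027 genes measured, with 22 probe sets of the 45101 on the array. RNA came from breast tumours that arise in the MMTV-Wnt-1 line, a transgenic model whose name joins the mouse mammary tumour virus promoter to Wnt-1. Cells of 3 tumour-bearing mice, numbered 1 to 3, were separated by fluorescence-activated sorting into a population labelled tumorigenic, gated CD24+Thy+CD45-, and a population labelled nontumorigenic, defined as not CD24+Thy+CD45-, with no word on whether it was kept free of CD45+ cells, and each population of each mouse was hybridised to 1 Affymetrix array. The arrays are called T1, T2 and T3 for the labelled tumorigenic cells of mice 1, 2 and 3, and N1, N2 and N3 for the labelled nontumorigenic cells of the same mice. The labels give no age or treatment, and all groups carry the transgene. The values are log2 expression levels, so a difference of 1 is a doubling.

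PDGF ligands are secreted dimers. Pdgfa and Pdgfc products act mainly on the receptor encoded by Pdgfra, which marks fibroblasts and other mesenchymal cells, while PDGF-B and PDGF-D act mainly on the receptor encoded by Pdgfrb. In blood vessels, endothelial cells release PDGF-B and thereby recruit pericytes, the mural cells that wrap capillaries and carry the beta receptor. Rgs5, Cspg4 and Kcnj8 are widely used markers of these cells, and Mcam is shared by pericytes and endothelium.

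For 8 of the 10 genes a promoter was found by symbol in RefSeq sequences of the build GRCm38.p6. The 250 bases before the transcription start are shown for 3 pericyte markers and for the ligand Pdgfc. On the probe sets that represent them, the 3 markers all read highest on T1. The highest value of Pdgfc lay on an array where Cspg4 and Rgs5 were lowest. Each sequence is written 5′ to 3′ on its gene's strand, with capitals marking a match to 1 of 4 motifs searched on both strands.
Rgs5 (chr1:169655251-169655500, plus strand): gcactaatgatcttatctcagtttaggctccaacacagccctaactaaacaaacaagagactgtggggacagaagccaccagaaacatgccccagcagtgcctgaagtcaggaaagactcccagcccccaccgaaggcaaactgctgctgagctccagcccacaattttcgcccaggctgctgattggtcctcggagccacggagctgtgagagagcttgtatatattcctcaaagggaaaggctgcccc
Cspg4 (chr9:56864854-56865103, plus strand): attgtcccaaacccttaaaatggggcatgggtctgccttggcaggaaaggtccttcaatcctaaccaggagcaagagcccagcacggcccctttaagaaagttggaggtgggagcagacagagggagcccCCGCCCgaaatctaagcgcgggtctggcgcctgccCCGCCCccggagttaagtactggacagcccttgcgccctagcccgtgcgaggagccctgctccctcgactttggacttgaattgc
Kcnj8 (chr6:142571615-142571864, minus strand): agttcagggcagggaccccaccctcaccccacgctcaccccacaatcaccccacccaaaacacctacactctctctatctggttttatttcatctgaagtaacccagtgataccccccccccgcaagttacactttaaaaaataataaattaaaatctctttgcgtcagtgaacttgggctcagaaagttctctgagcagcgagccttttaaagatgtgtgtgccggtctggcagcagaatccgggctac
Pdgfc (chr3:81036166-81036415, plus strand): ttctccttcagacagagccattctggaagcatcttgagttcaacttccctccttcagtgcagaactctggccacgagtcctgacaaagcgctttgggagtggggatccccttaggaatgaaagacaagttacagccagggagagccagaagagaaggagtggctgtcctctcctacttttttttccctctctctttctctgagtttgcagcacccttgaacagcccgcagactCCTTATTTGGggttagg

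The motifs were TATAAA, the GC box GGGCGG, the Notch effector core TGGGAA, and the CArG box, the serum response factor motif of contractile genes. None overlapped another in these windows. Cspg4 held 2 GC boxes on the minus strand of the gene, starting 120 and 85 bases before its start, and 32.7% of 32851 mouse promoter windows of this length held at least 1. Pdgfc held 1 CArG box 17 bases before its start, which 1.47% of windows did. The windows of Rgs5 and Kcnj8 held none of the 4 motifs. Of all windows, 12.4% held TATAAA and 21.6% TGGGAA. A match of letters is a description of the sequence, not a binding site.

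The labels were checked on the genes of the sort gate. Ptprc, the CD45 gene, read 10.21, 7.76 and 3.82 on T1, T2 and T3, against 2.33, 3.59 and 2.51 on N1, N2 and N3, so on T1 and T2 it went against the CD45- part of their gate. What it should read on the N arrays depends on whether that population could hold CD45+ cells, which the labels leave unclear. Cd24a read 11.85, 12.34 and 12.84 against 12.86, 12.84 and 12.99, and Thy1 10.83, 10.51 and 9.33 against 10.25, 9.67 and 10.04. The populations are therefore called the labelled ones, and each direction below is one between labels. The labelled tumorigenic arrays also differed among themselves: the mean level of a list of 14 leukocyte and macrophage genes was 10.80, 9.24 and 5.77 on T1, T2 and T3, against 4.15 to 4.43 on the N arrays. The 18S rRNA control (3' probe set) read 6.32 to 7.76 against 8.52 to 8.97, and the Gapdh 3' probe set exceeded the 5' one by 6.60 on T2 and by 2.41 to 3.81 on the other 5 arrays. Of epithelial markers, Krt18 read 9.16 to 12.19 and Krt14 8.68 to 10.94 over the 6 arrays. The luminal list was lower under the tumorigenic label: 11 of 12 genes had negative differences, where 50.7% of all genes had positive ones. Of the 12, 7 had ranges apart as lower, where 5.59% of all genes did. The list's median was -1.67, and its mean level was 6.35, 8.21 and 8.26 on T1, T2 and T3 against 9.21 to 9.49 on the N arrays. Elf5, a luminal transcription factor, read 4.86 on T1, Cldn4, a tight junction gene, 3.07 and Kit 2.97, the last under 2.98, the mean level up to which probe sets were left out as dim. Their part in the results below was not tested.

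None of the 10 genes separated the labels. By limma with Benjamini-Hochberg adjustment, 0 of 10 members passed an adjusted p of 0.05, as did 0% of all genes. At an unadjusted p of 0.05 the count was 0 of 10 members, where 8.5% of all genes passed, and with the mouse as a block it was 1 member, Pdgfb, where 9.55% passed. The ranges of the populations overlapped in all 10 members and were apart in 12.5% of all genes, higher in 6.9% and lower in 5.59%. The median log2 difference over the members, labelled tumorigenic minus labelled nontumorigenic, was 0.049, with 6 positive and 4 negative values, and over all genes it was 0.0051. With 3 mice, intervals are wide, and a p that misses the threshold does not show that levels were equal.

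**Figure D1:**
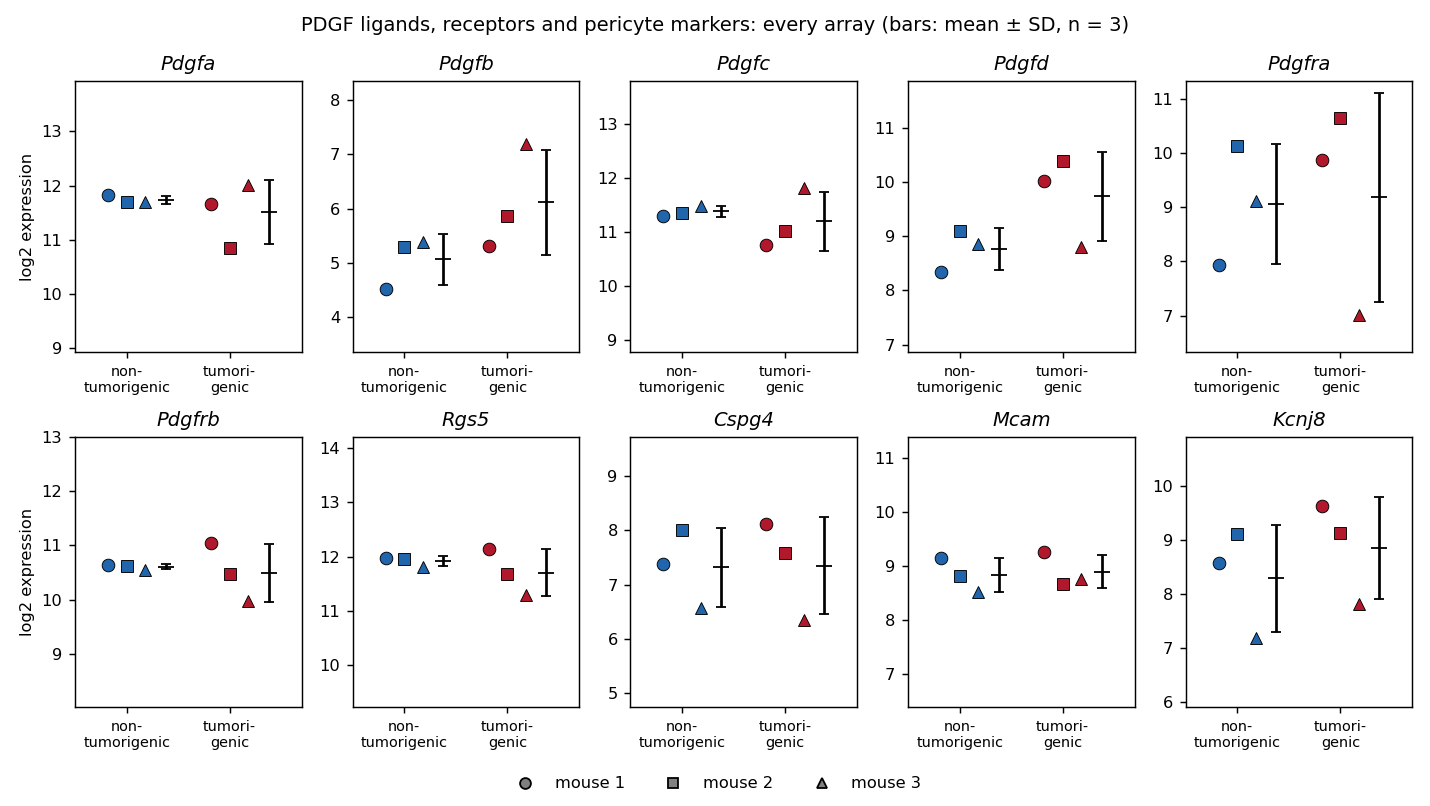
Log2 expression of the 10 genes on each of 6 arrays, with the labelled nontumorigenic population in blue and the labelled tumorigenic one in red, the mouse given by the marker shape, and black bars for the mean ± SD (n = 3). Each panel spans the same height in log2 units around its own centre. The red points of Pdgfrb, Rgs5, Pdgfa and Pdgfc spread widely while their blue points lie close together, and both mouse 3 points are the lowest for Cspg4 and Kcnj8.

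Among the ligands, Pdgfb and Pdgfd had the largest differences, and their order depended on the setting. Pdgfb was ahead of Pdgfd on the chosen probe sets, but Pdgfd was ahead with array weights (1.13 against 0.93), with probe sets averaged (0.97 against 0.67), without T3 (1.44 against 0.52) and without mouse 3 (1.48 against 0.67). Pdgfb encodes the B chain, the main pericyte-recruiting ligand of endothelium. It read 5.30, 5.86 and 7.19 on T1, T2 and T3 and 4.52, 5.30 and 5.38 on N1, N2 and N3. T3 stood highest and N1 lowest, and the ranges overlapped where T1 lay below N3. The means were 6.12 ± 0.97 and 5.06 ± 0.47 (SD, n = 3), which is a log2 difference of 1.05 or 2.08-fold (SE 0.52; 95% interval -0.22 to 2.33; limma adjusted p = 0.638). Within mice 1, 2 and 3 the difference was 0.78, 0.56 and 1.82, positive in all 3 of them. With the mouse as a block the limma p was 0.0250 before adjustment and 0.476 after it. The other Pdgfb probe set, at a mean level of 4.71, had a smaller difference of 0.29.

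Pdgfd, which encodes a ligand that needs proteolytic cleavage before it binds the beta receptor, had its larger differences in mice 1 and 2. Its values were 10.01, 10.39 and 8.81 on T1, T2 and T3 and 8.34, 9.09 and 8.86 on N1, N2 and N3. T1 and T2 lay above all 3 N arrays, while T3 lay between N1 and N3. The means of 9.74 ± 0.83 and 8.77 ± 0.38 (SD, n = 3) gave a log2 difference of 0.97 or 1.96-fold (SE 0.45; 95% interval -0.11 to 2.06; limma adjusted p = 0.622), the smallest adjusted p of any member. Within mice 1 to 3 it was 1.67, 1.30 and -0.056. Leaving out T3 gave 1.44 (limma adjusted p = 0.133), leaving out T2 gave 0.65 (limma adjusted p = 0.871), and leaving out both arrays of mouse 1 gave 0.62 (limma adjusted p = 0.959). Its other 2 probe sets, with means of 2.84 and 2.20, lay below the dim cut of 2.98 and are no check on this value.

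On the chosen probe sets Pdgfa and Pdgfc, the ligands of the alpha receptor, shared a pattern that neither Pdgfb nor Pdgfd had in full. Pdgfa read 11.67, 10.86 and 12.01 on T1, T2 and T3 and 11.82, 11.69 and 11.69 on N1, N2 and N3. Pdgfc read 10.76, 11.02 and 11.81, against 11.30, 11.35 and 11.49. For both, T1 and T2 lay below all 3 N arrays and T3 was the highest of all 6. The log2 difference of Pdgfa was -0.23 (SE 0.31; limma adjusted p = 0.860), and of Pdgfc -0.18 (SE 0.29; limma adjusted p = 0.888). In mouse 3 alone the differences were positive, at 0.31 and 0.32. The other Pdgfc probe set repeated the order within each mouse, with a difference of -0.24, whereas the other Pdgfa probe set had 0.17. On that Pdgfa probe set T3 was again highest, at 7.78, but T1 read 7.58, above all 3 N arrays (7.13 to 7.53). Its differences were positive in mice 1 and 3, at 0.22 and 0.66, and negative in mouse 2, at -0.38.

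T3 was thus the highest of 6 arrays for 3 of 4 ligands, Pdgfa, Pdgfb and Pdgfc, an order found in 16.6% of all genes. Basal epithelial genes were also highest on this array: the mean level of 11 of them was 9.73 there and 7.97 to 8.73 on the other 5. Krt5, a basal keratin, read 10.65 on it, against 8.78 to 9.55 elsewhere. A list of 16 endothelial genes, the vessel cells that are a known source of PDGF-B, had a mean level of 7.43, 7.92 and 7.11 on T1, T2 and T3, and of 6.38, 5.93 and 5.90 on N1, N2 and N3. All 16 had positive differences, where 50.7% of all genes had one. Of the 16, 13 had ranges apart as higher, where 6.9% of all genes did. All 16 were positive in mouse 3, as Pdgfb was, where the median over all genes was 0. That was not particular to endothelial genes. In mouse 3, 11 of 11 basal and 13 of 14 leukocyte genes were positive, but 2 of 15 fibroblast and 2 of 12 luminal genes. Among T1, T2 and T3 the mean of the endothelial list was lowest on T3, where Pdgfb was highest. Of a list of 8 platelet genes, another known source, 5 were measured, with mean levels of 4.30 to 4.99 against 4.08 to 4.30, and 1 of the 5, Pf4, was highest on T1, at 8.01 there and 3.85 to 5.32 on the other arrays. Itga2b and Gp9, which encode platelet surface proteins, were instead lowest of all 6 on T1, at 4.41 and 4.29. The part of these cell types in the ligand values was not tested.

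**Figure D2:**
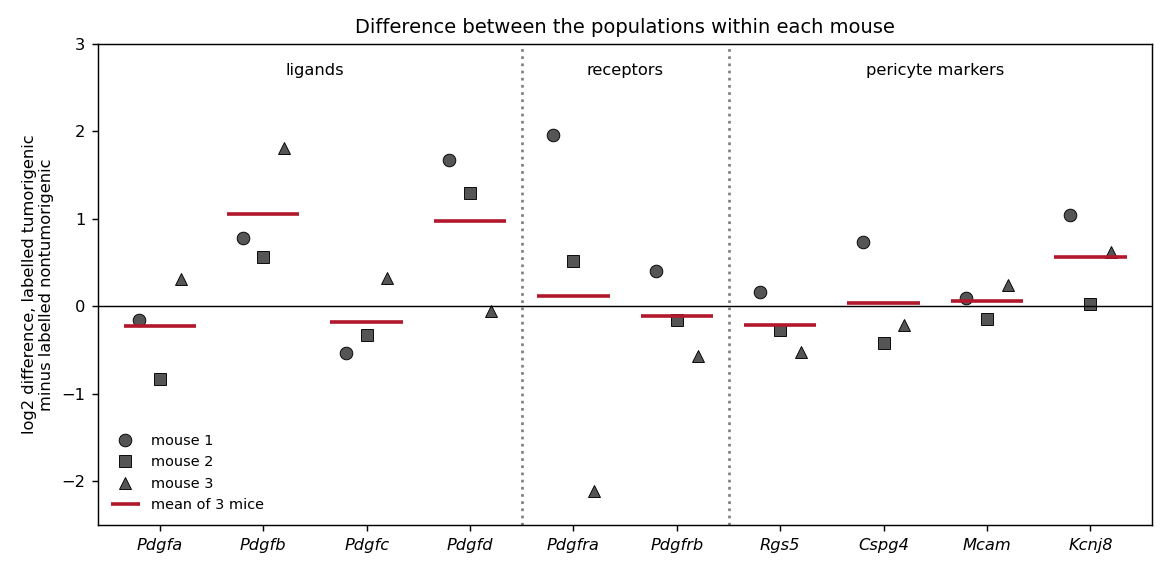
Log2 difference between the populations within each mouse, labelled tumorigenic minus labelled nontumorigenic, for the 10 genes grouped by role, with marker shapes for mice 1 to 3 and red bars for the mean of 3 mice. All 3 markers of Pdgfb lie above 0, from 0.56 to 1.82, and those of Pdgfra run from -2.11 to 1.95.

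The receptors had mean differences near 0 with wide intervals, and Pdgfra had the largest spread of all members. The alpha receptor read 9.88, 10.65 and 7.01 on T1, T2 and T3 and 7.93, 10.14 and 9.12 on N1, N2 and N3. The lowest array was T3 and the highest T2, so 1 population held both ends of a range of 3.65 log2 units, wider than in 97.7% of all genes. The means were 9.18 ± 1.92 and 9.06 ± 1.11 (SD, n = 3 each), which is a log2 difference of 0.12 (SE 1.04; 95% interval -2.42 to 2.66; limma adjusted p = 0.982). Within mice 1 to 3 it was 1.95, 0.52 and -2.11. The other 2 probe sets kept that order of signs, with 0.72, 0.61 and -2.11 for one and 0.41, 0.52 and -0.68 for the other.

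Fibroblast genes, the usual company of Pdgfra, had a similar order within the labelled tumorigenic population. Of 17 listed, 15 were measured, and 12 of these were lowest of all 6 arrays on T3, an order found in 13.4% of all genes. Their mean level was 10.52, 10.44 and 8.81 on T1, T2 and T3, and 9.33, 9.63 and 9.89 on N1, N2 and N3. Dcn, a collagen-binding proteoglycan, read 10.80, 11.02 and 9.18, against 9.79, 10.32 and 9.85. Of the type I collagen chains, Col1a2 read 12.80, 12.72 and 10.97, against 11.94, 12.24 and 12.24. Col1a1 was also lowest on T3, but varied only from 12.06 to 12.57 over all arrays. In these sorted populations, fewer cells of a type and less RNA per cell cannot be told apart.

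Pdgfrb, the beta receptor of pericytes, was nearly level in 1 population and graded in the other. It read 11.04, 10.47 and 9.98 on T1, T2 and T3, and 10.64, 10.62 and 10.55 on N1, N2 and N3. T1 stood above, and T2 and T3 below, all 3 N arrays. The SD was 0.53 in the first and 0.047 in the second, and the log2 difference was -0.11 (SE 0.28; 95% interval -0.80 to 0.58; limma adjusted p = 0.937). The other Pdgfrb probe set read 10.53, 10.03 and 9.43 against 9.99, 10.34 and 9.67, with a difference of -0.0041. It kept the order among the labelled tumorigenic arrays, while its labelled nontumorigenic values were further apart.

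The pericyte marker Rgs5, a regulator of G-protein signalling, repeated the order of Pdgfrb array by array on the chosen probe sets. It read 12.15, 11.68 and 11.28 on T1, T2 and T3 and 11.98, 11.95 and 11.81 on N1, N2 and N3. The order from highest to lowest was the same as for Pdgfrb in all 6 arrays, with T1 and T3 at the ends. The means of 11.70 ± 0.43 and 11.92 ± 0.091 (SD, n = 3) gave a log2 difference of -0.21 (SE 0.25; 95% interval -0.81 to 0.39; limma adjusted p = 0.835). Of its other 3 probe sets, the 2 bright ones had differences of -0.43 and -0.22, and a dim one at a mean of 4.36 had 0.20. All 3 had N2 above N1, as the other Pdgfrb probe set did, so the full order held only on the chosen ones. On the Rgs5 probe set with a difference of -0.22, N2 was highest at 11.84 and T2 lowest at 11.18. The fall from T1 through T2 to T3 was not particular to pericyte genes. It was found in 15.2% of all genes, and in 15 of 27 other mural, 7 of 15 fibroblast and 14 of 14 leukocyte genes. Of 16 endothelial, 11 basal and 12 luminal genes, 0 had it. As a description of likeness, the root mean square difference between gene-centred values over 6 arrays was 0.081 for Pdgfrb and Rgs5, the smallest between any 2 members.

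Among all genes, those nearest to Rgs5 by that measure were Ankrd50 (0.044), Cyp20a1 (0.054) and Pdgfrb (0.081), and those nearest to Pdgfrb were Unc5a (0.071), Rgs5 (0.081) and Cyp20a1 (0.094). For Pdgfra they were Ifi204 (0.380), Hsd11b1 (0.386) and Smoc2 (0.407), and for Pdgfb Srrm3 (0.208), Traf1 (0.240) and Ntf5 (0.261). The 6 arrays share 3 mice, the measure rests on few points, and nothing follows from it about function.

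Cspg4 and Kcnj8 were lowest in mouse 3 under both labels. Cspg4, which encodes the NG2 proteoglycan of the pericyte surface, read 8.11, 7.59 and 6.35 on T1, T2 and T3 and 7.38, 8.005 and 6.56 on N1, N2 and N3. Kcnj8, the pore subunit of the ATP-sensitive potassium channel of mural cells, read 9.62, 9.13 and 7.81, against 8.57, 9.10 and 7.19. For both genes, both arrays of mouse 3 lay below the other 4, an order found in 5.62% of all genes. The log2 difference was 0.035 for Cspg4 (SE 0.56; 95% interval -1.32 to 1.39; limma adjusted p = 0.990). For Kcnj8 it was 0.56 (SE 0.65; 95% interval -1.02 to 2.14; limma adjusted p = 0.832), positive in all 3 mice at 1.05, 0.028 and 0.62. That value moved with single arrays: it was 0.016 without N3, 0.18 without T1, 0.97 without N2 and 1.09 without T3, and 0.32 without mouse 1. Kcnj8 and Pdgfb were the 2 members with a single sign in all 3 mice, where 30.2% of all genes had one. The other Cspg4 probe set, at a mean of 4.59, had a difference of -0.27.

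Mcam, an adhesion molecule of mural and endothelial cells, varied least. It read 9.25, 8.67 and 8.77 on T1, T2 and T3, against 9.15, 8.81 and 8.53, a range of 0.72 over all arrays. The populations overlapped throughout, and the log2 difference was 0.064 (SE 0.25; 95% interval -0.54 to 0.66; limma adjusted p = 0.959). Mcam and Kcnj8 are each measured by 1 probe set, so no second probe set checks them.

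**Figure D3:**
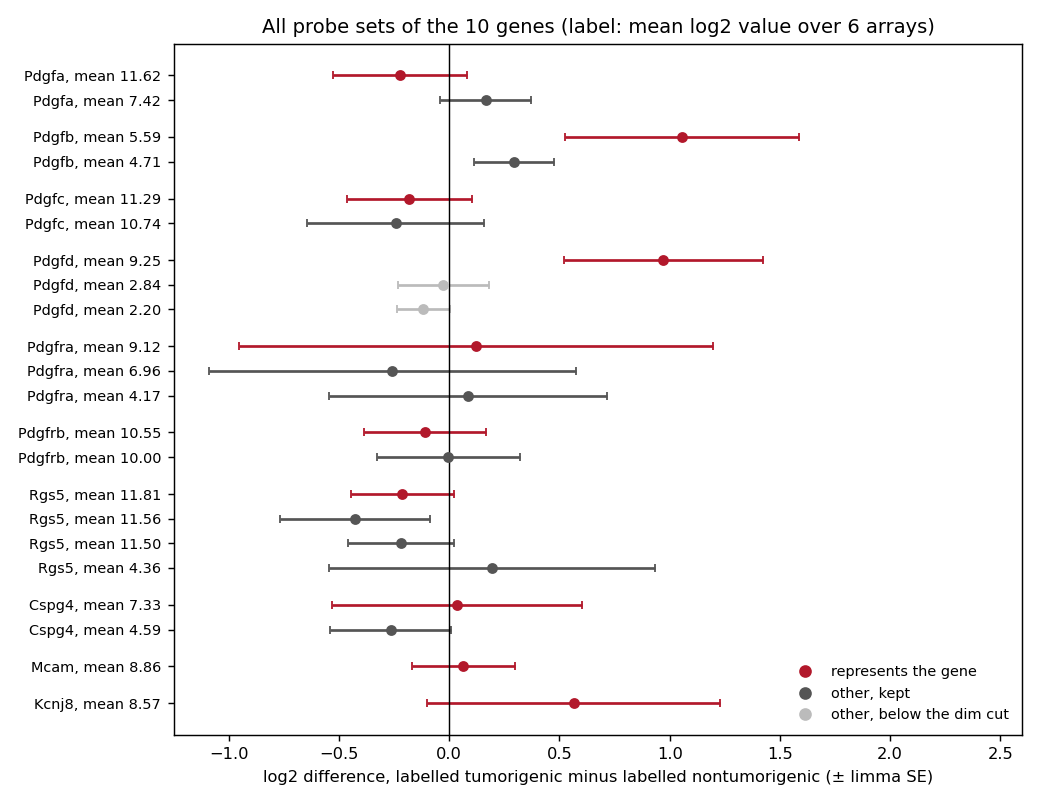
Log2 difference between the labels (± limma SE, from a fit on all probe sets) for all 22 probe sets of the 10 genes, each labelled with its mean log2 level over 6 arrays. Red points represent the gene, dark grey points are other probe sets and light grey ones lie below the dim cut. Both points of Pdgfb lie above 0, and the probe sets of Pdgfa, Pdgfd, Pdgfra, Rgs5 and Cspg4 fall on both sides of it.

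On the chosen probe sets the 4 pericyte markers were all highest on T1, as 16.5% of all genes were, and so was Pdgfrb. So were 18 of 27 other mural genes, 8 of 15 fibroblast genes and all 14 leukocyte genes, and Ptprc read 10.21 there. The other Cspg4 probe set was instead highest on N1 (5.19, against 4.63 on T1). A bright Rgs5 one was highest on N2 (11.84, against 11.81 on T1). The part of other cell types in these values was not tested. The spread between mice was larger in the labelled tumorigenic population for 8 of 10 members, and for 54.6% of all genes. For Pdgfa, Pdgfc, Pdgfrb and Rgs5 the SD was more than 4 times larger there on the chosen probe sets, as for 12% of all genes. The other Pdgfc probe set repeated this, with SDs of 0.80 and 0.11. On other probe sets the SDs were closer for Pdgfa (0.32 and 0.20) and Pdgfrb (0.55 and 0.33). They were also closer on the bright Rgs5 ones (0.62 and 0.26, and 0.36 and 0.28). Mcam and Kcnj8 had SDs of 0.31 and 0.94 in the labelled tumorigenic arrays and of 0.31 and 0.99 in the others.

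Other mural cell genes were read as a wider list, and which cells their signal came from was not tested. Of 30 listed, 27 were measured: 16 had positive and 11 negative differences, none had a limma p below 0.05 before adjustment, and the median was 0.11. With the mouse as a block, 2 of the 27 had one, Cox4i2 and Vtn, both higher, where 9.55% of all genes did, and 0 passed after adjustment. Within mice 1, 2 and 3 the median was 0.42, 0.11 and -0.17, with 24, 15 and 8 of the 27 positive. The mean level of the list was 8.64, 8.15 and 7.47 on T1, T2 and T3, and 8.20, 8.11 and 7.67 on N1, N2 and N3. The lowest limma p belonged to Foxc1, a forkhead factor, with a log2 difference of -0.95, followed by 0.61 for the intermediate filament Des and 0.60 for the Tie2 ligand Angpt1 (limma adjusted p = 0.679, 0.709 and 0.728).

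As for Cspg4 and Kcnj8, both arrays of mouse 3 were the lowest for 14 of these 27 genes, where 5.62% of all genes had that order. This order was noticed in the data and is given as a description. Abcc9, the partner of the Kcnj8 channel, read 9.34 in the labelled tumorigenic and 9.41 in the labelled nontumorigenic array of mouse 3, and 10.30 to 10.84 on the other 4. Higd1b, a pericyte-enriched mitochondrial gene, read 7.10 and 7.09, against 8.36 to 8.79. Vtn read 4.88 and 4.16, against 5.85 to 6.44. These 3 genes were picked for that order after their values were seen. Notch3, the mural Notch receptor, did not share it, with 10.72 and 11.22 in mouse 3 and 10.67 to 11.45 elsewhere. Fibroblast and luminal, basal and leukocyte genes had 0 members with that order, and endothelial genes 1 of 16, Flt1.

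**Figure D4:**
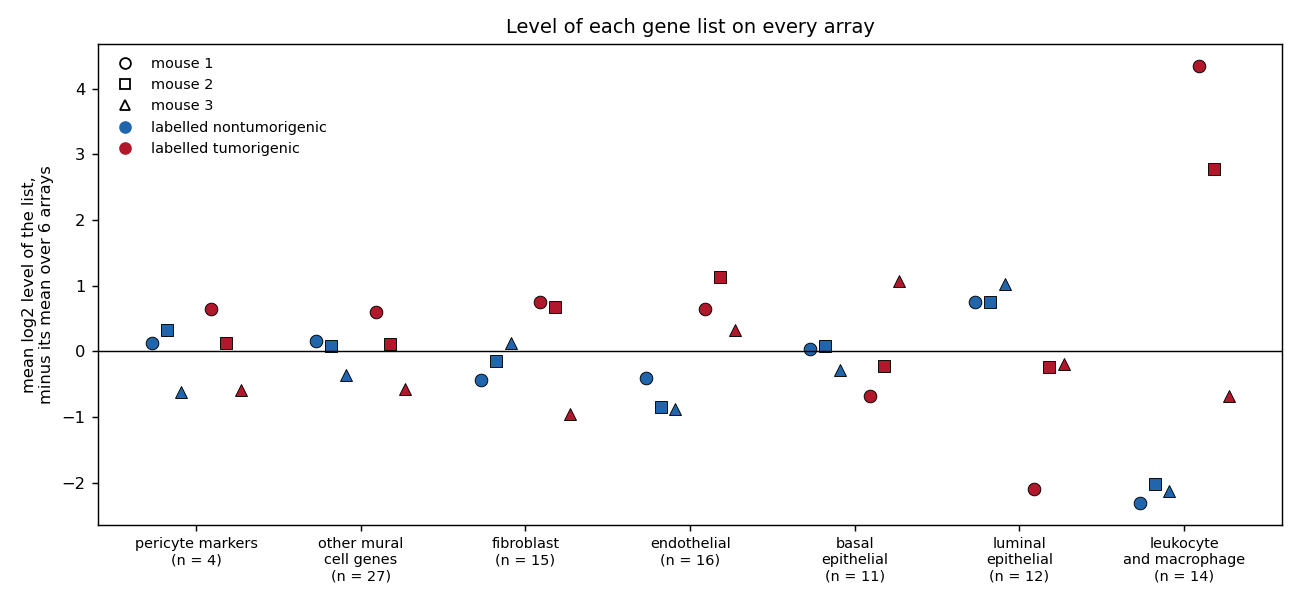
Mean log2 level of each gene list on every array, minus the mean of the list over 6 arrays, with the labelled nontumorigenic population in blue, the labelled tumorigenic one in red, and the mouse given by the marker shape. Pericyte and other mural genes are lowest in both mouse 3 arrays, fibroblast genes only in the labelled tumorigenic one, and endothelial and leukocyte genes separate the colours.

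Contractile genes, which mural cells share with myoepithelium, had another order than the pericyte markers. All 13 listed were measured, 12 with positive differences, where 50.7% of all genes had one, and a median of 0.37. Within mice 1, 2 and 3 the median was 0.022, 0.096 and 0.91, with 7, 7 and 10 of the 13 positive, so the difference lay mostly in mouse 3. Tagln had a limma p below 0.05 before adjustment (difference 0.64; limma adjusted p = 0.462) and was the 1 gene of 13 that did, a share near that over all genes. Acta2, smooth muscle actin, read 11.86, 11.75 and 12.32 on T1, T2 and T3 and 11.88, 11.55 and 11.44 on N1, N2 and N3. The list's mean level was highest on T3 at 9.47, against 8.60 to 8.98 on the other arrays, where basal keratins were highest as well.

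Beyond the ligands and receptors, 39 of 44 listed genes of PDGF processing and signalling were measured, and 0 passed the adjusted threshold. Differences were positive for 27 and negative for 12, with a median of 0.081, and 1 gene in each direction had a limma p below 0.05 before adjustment, where 5.23% of all genes did as higher and 3.27% as lower. Grb2, the adaptor that links activated receptors to Ras, read 9.18, 8.58 and 8.95 against 8.19, 8.46 and 8.42, a difference of 0.54 (SE 0.21; limma adjusted p = 0.558). Slc9a3r1, a PDZ scaffold that binds PDGF receptors, read 11.72, 11.58 and 11.81 against 12.17, 11.97 and 12.25, a difference of -0.43 (SE 0.16; limma adjusted p = 0.557). The ranges of both genes were apart, as were those of Src and Ptpn2, both lower, so 1 gene of 39 was apart as higher and 3 as lower, where 6.9% and 5.59% of all genes were. With the mouse as a block, Grb2 and Slc9a3r1 no longer had a limma p below 0.05 before adjustment, whereas Nrp1 and Fyn did, 2 of 39 genes where 9.55% of all genes passed, and 0 passed after adjustment. The next smallest p belonged to the co-receptor Nrp1, the kinase Fyn and the adaptor Nck1, with differences of 0.80, 0.71 and 0.47 (limma adjusted p = 0.592, 0.599 and 0.629), and their ranges overlapped.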

How the data were processed

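Affymetrix arrays measured RNA of 2 sorted populations from 3 mice. The deposited values are log2 levels for each probe set, made by the authors with robust multi-array average (RMA) per the submitters' processing notes. Its version and background step are not stated in the labels. The scale was judged from the values, which reach 13.87. RMA gives arrays a common distribution, and a shift of most transcripts in 1 direction would be lost. No 2 arrays held identical values.

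Of 45101 probe sets, 64 controls were left out, and of the rest 34945 had 1 gene symbol in the platform annotation, 932 several and 9160 none. Of those with 1 symbol, 34741 matched RefSeq genes of GRCm38.p6 by Entrez identifier, used for names. Probe sets in the lowest 25% by mean, up to log2 2.98, were removed, and each gene was represented by its brightest probe set. Both labels were compared over all 15027 genes with limma 3.58.1 (lmFit, eBayes; R 4.3.3), two-sided, with Benjamini-Hochberg adjustment at 0.05 and no covariate. The code was run on simulated data with the same noise for every gene and shifts larger than any member's difference. That run says nothing about power for the members. With 3 against 3, an exact permutation test cannot go below 0.1 and was not used. Arrays have no depth, and their number limits the precision.

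Mouse numbers pair the arrays, since each animal gave both populations. After centring on the population mean, same-mouse arrays correlated over genes at 0.079, 0.136 and 0.086, and other pairs at -0.083 to -0.010. The centring makes other pairs negative on balance wherever same-mouse pairs are positive, so this contrast is no separate check of the pairing. Named genes were the 10 members, the sort markers, defining markers of other cell types, up to 8 genes of the pathway and mural lists with an unadjusted p under 0.05 and the next 3 by p, and the 3 genes most like Pdgfb, Pdgfra, Pdgfrb and Rgs5. A few others are named as lists required. The members and lists were chosen with earlier results of these data known. Alternatives covered the mouse block, the dim filter, normalisation, the prior, array weights, the gene's probe set and left-out arrays or mice.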

Additional observations from a re-analysis of the deposited data

How the results depend on the processing

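Of the 10 genes, 0 passed an adjusted p of 0.05 under any of the 17 alternatives run, which included 9 left-out arrays or mice. By limma at an unadjusted threshold of 0.05, the count of members was 1 (Pdgfb) with the mouse as a replicate block and 1 (Pdgfd) with array weights, and leaving out arrays or mice gave 0 to 2. The count of 2 came without array T3, from Pdgfd and Pdgfc, when 15.4% of all genes passed. The count of members with separate ranges was 0 under the other alternatives run for it and 0 to 5 when arrays or mice were left out, where fewer arrays make separate ranges commoner: 41.6% of all genes had them without mouse 3. The median over the members moved between -0.17 and 0.33, with both ends from left-out arrays. When the probe sets of a gene were averaged, Pdgfra and Cspg4 turned to -0.017 and -0.12. When arrays or mice were left out, the sign turned for some members: the range was -0.49 to 0.10 for Pdgfa, -0.49 to 0.037 for Pdgfc, -0.79 to 1.24 for Pdgfra, -0.38 to 0.15 for Pdgfrb, -0.35 to 0.53 for Cspg4 and -0.11 to 0.23 for Mcam. Pdgfb, Pdgfd, Rgs5 and Kcnj8 kept their sign under all 17 alternatives, at 0.52 to 1.46, 0.62 to 1.48, -0.43 to -0.0029 and 0.016 to 1.09. The direction turned without T1 for Pdgfc (0.037), Pdgfra (-0.23), Cspg4 (-0.35) and Mcam (-0.11), without T2 for Pdgfa (0.10), Pdgfra (-0.62) and Cspg4 (-0.084), without T3 for Pdgfrb (0.15), without N1 for Pdgfra (-0.44), and without N3 for Cspg4 (-0.34) and Mcam (-0.088). The block changed no call of a member after adjustment, and before it no call but that of Pdgfb. As limits, 3 mice give wide intervals, and dim probe sets such as those of Pdgfb carry less signal over background.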
